A study of Mus musculus with 22 samples.

Results

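Axon guidance ligands and their receptors form the subject of this account: 49 genes out of the 20129 genes that had a probe with a RefSeq identifier and a symbol on the array. They comprise 21 ligands (5 A-type ephrins, 3 B-type ephrins, 7 class 3 semaphorins, netrin 1, 2 netrin-G proteins and 3 Slits) and 28 receptors (9 EphA, 5 EphB, Dcc and 4 Unc5 netrin receptors, 3 Robo, 2 neuropilins and 4 A-type plexins). Members were taken from these families and not by a cut on their measured values, though the list was drawn up with earlier results of these data known. Each gene was read from the RefSeq probe with the highest median over all arrays, and 15 members had more than 1 such probe.

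The data are a Transcriptome Tomography experiment, in which a whole brain is cut along one body axis into consecutive slabs and the RNA of each slab, called a fraction, is measured on a microarray. The animals were male and of the inbred wild-type strain C57BL/6J, with no treatment named: 1 mouse gave 10 coronal fractions, another 6 horizontal fractions and the last 6 sagittal fractions, with 1 array per fraction and therefore no replicate of any fraction. Most fractions are 1 slab, but coronal fraction 10 pools slabs 10 and 11, sagittal fraction 1 slabs 1 and 2 and sagittal fraction 6 slabs 7 to 9. The sample titles give an age of 7 days after birth, whereas the age field gives 3 days. The account of the study lists the brain with this total of fractions at 7 days. A slab is 500 µm wide (100 slices of 5 µm) in the labels but wider in the account of the study, and positions are therefore given here only as fraction numbers.

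Growing axons steer by extracellular cues that attract or repel the growth cone. Netrin 1 attracts through Dcc and repels through Unc5 receptors, Slits repel through Robo receptors, class 3 semaphorins act through a neuropilin that binds the ligand and a plexin that signals, and ephrins act on Eph receptor tyrosine kinases at cell contacts. Graded Eph and ephrin levels order topographic maps in the visual and other systems. In the first days after birth the long tracts of the mouse brain are still being completed, and many of these genes go on to roles in synapses and blood vessels.

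The level of a gene is the log2 processed intensity of its probe, set relative to the 75th percentile of that array, so a difference of 1 is a 2-fold difference and a negative level is below that percentile. Levels are compared between fractions for 1 gene and not between genes. Each of the 49 members reached detection somewhere in all 3 series and was tested, and 43 were well above background on all 22 arrays. The exceptions were Robo3 (18 of 22 arrays), Ntng2 (17), Epha1 (17), Epha10 (14), Unc5d (6) and Sema3g (6), and a value that is not well above background is only a bound. The SD of a member over the 22 fractions had a median of 0.60, beside 0.52 for all 39621 probes tested.

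Marker genes gave the orientation. The 9 Hox genes of the hindbrain were all highest in coronal fraction 1, 4 of 7 cerebellar markers in fraction 3, 6 of 6 striatal markers in fraction 8 and 5 of 5 olfactory bulb markers in fraction 10, so the coronal series ran from the hindbrain to the olfactory bulb. Cortical markers were highest in horizontal fraction 1 (5 of 6) and hypothalamic markers in fraction 6 (4 of 6). In the sagittal series 6 of 6 cortical markers were highest in fraction 1 and 3 of 3 markers of the midline raphe in fraction 4. Endothelial (5 of 7) and meningeal markers (6 of 7) were highest in sagittal fraction 6. The spike-in slope reported by the scanner software was out of its accepted range on 7 arrays (coronal fractions 1 and 2, horizontal fractions 1 to 3, sagittal fractions 1 and 3) and in range on 15. Detected probes numbered 29605 to 41965 per array, and precision is set by how few arrays there are.

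**Figure D1:**
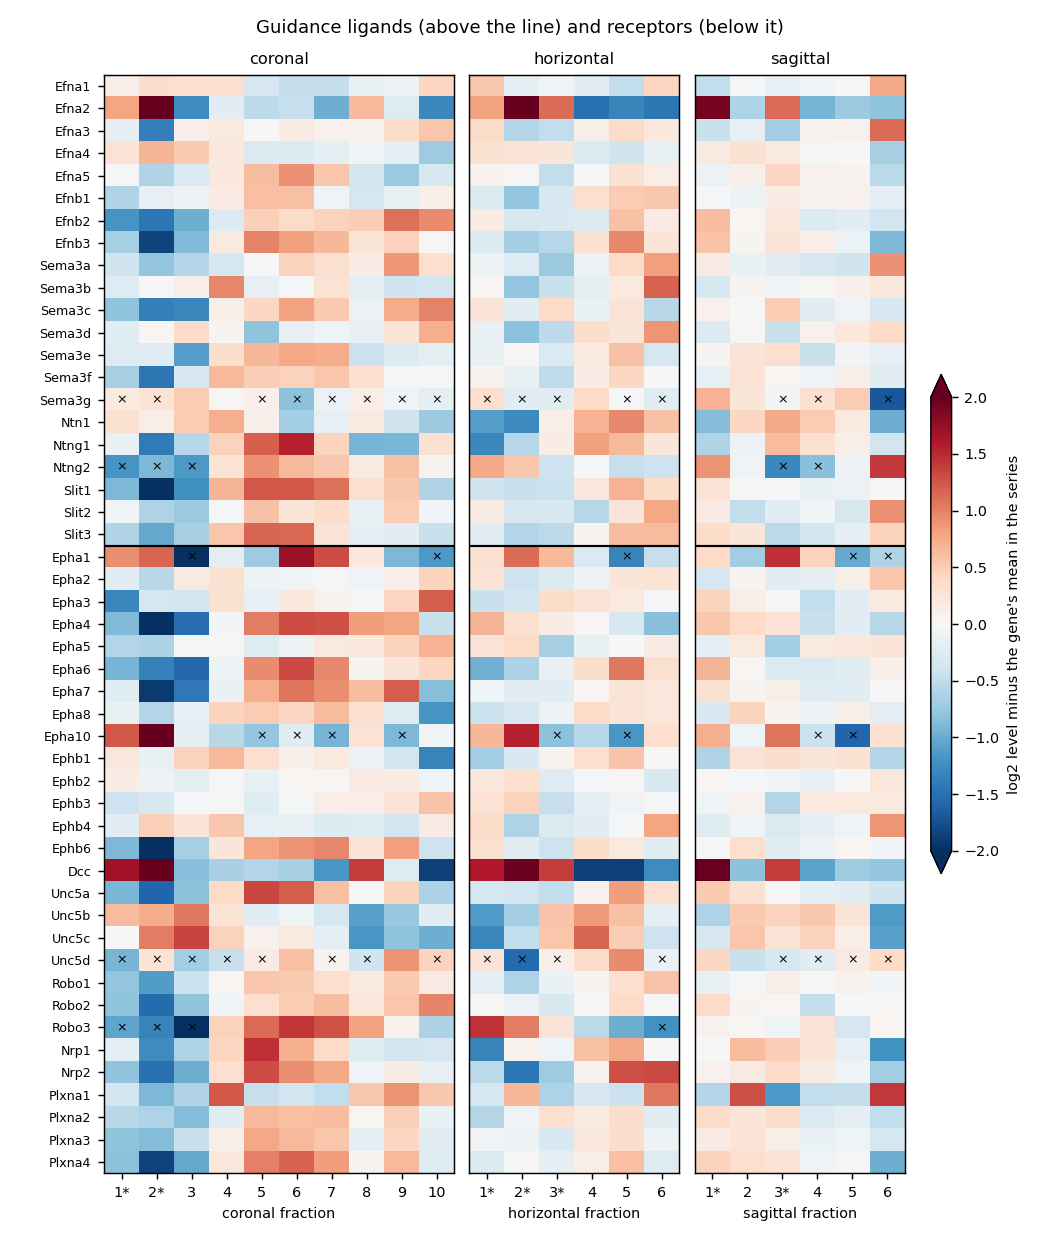
Level of the 49 members in each fraction, as log2 level minus the gene's mean in the series (colour scale cut at -2 and 2), with fractions on the horizontal axis and genes on the vertical axis. Crosses mark values not well above background and asterisks mark arrays whose spike-in slope was out of range. Many members are low in coronal fractions 1 to 3 and high in fractions 5 to 7, and Efna2 and Dcc are high on the arrays with asterisks.

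Along the coronal series the median of the guidance genes was low in fractions 1 to 3, at the hindbrain end, and high in fractions 4 to 7, although 22 of the 49 members did not pass the test. The median level of the 49 members, each taken relative to its own coronal mean, was -0.39, -0.61 and -0.59 in fractions 1 to 3, lay between 0.21 and 0.46 in fractions 4 to 7 and was 0.06, 0.16 and -0.13 in fractions 8 to 10. Regional and cell type markers moved along the same series: the summed cortical level was 0.37 to 0.96 in fractions 1 to 3 and 3.49 to 4.71 in fractions 4 to 7, and the summed oligodendrocyte level was 7.36 to 8.43 in fractions 1 to 3 and 4.68 to 6.91 in fractions 4 to 7. Their part in the profiles of the members was not tested. The median of all probes tested stayed between -0.14 and 0.17. The ligands (from -0.61 in fraction 2 to 0.47 in fraction 5) and the receptors (from -0.62 in fraction 2 to 0.51 in fraction 6) followed nearly the same course, and in fraction 9 the receptors stood at 0.25 and the ligands at -0.08.

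Position along the coronal series was past the threshold for 27 of the 49 members (55.1%), where 19.8% of all probes tested passed. The test was limma's F test of a linear and a quadratic term over all 22 arrays, with an adjusted p under 0.05. Among the 43 members well above background on every array 25 passed, where 24.1% of such probes did. These shares are of probes, of which a gene can have several, while each member was read from 1. With each gene read as the mean of its RefSeq probes, 30.2% of genes passed, and of the 27 only Ephb6 was lost. Of the 27, 22 (81.5%) had a rising linear term, from hindbrain to olfactory bulb, and 5 a falling one. Of all probes that passed, 62.5% rose, and the probes that passed and rose or fell made up 12.4% and 7.43% of all probes tested. Among ligands 9 of 21 passed, with a median fitted range of 1.08 log2 units, and among receptors 18 of 28, with a median of 1.65. The median fitted range of all probes was 0.99. The difference between ligands and receptors was not tested.

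The lowest level fell in coronal fractions 1 to 3 for 22 of the 27 and in fraction 2 for 17. Of all probes that passed, 53.5% were lowest in fractions 1 to 3 and 41.3% in fraction 2. Fractions 1 and 2 are the coronal arrays with the spike-in slope out of range, and fraction 2 also lay alone on its slide. On the 15 arrays in range 12 members passed, where 10.4% of probes did. They were Slit1, Efnb2, Epha4, Epha5, Epha7, Epha8, Ephb1, Ephb6, Unc5b, Unc5c and Robo3 of the 27, and Efna1 besides. With slide as a block 5 members remained past the threshold (Efnb2, Ephb6, Unc5a, Robo1 and Plxna3), where 4.03% of probes passed. None of the 27 fitted curves turned to an opposite shape in either fit, while the linear term changed sign for Slit1, Slit3, Sema3f, Unc5a and Plxna3 on the arrays in range and for Slit3 with the slide block.

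Among the coronal ligands, Slit1, a repellent of the Slit family, had the largest fitted range. Its level was lowest in fraction 2 (-0.70), had a median of 2.17 and was highest in fraction 5 (2.97), a 12.7-fold span. Fraction 2 has the spike-in slope out of range, and the lowest coronal level on the arrays in range was 0.51. Fractions 5 to 7 lay at 2.83 to 2.97 and fraction 10 was back at 1.13. The fitted range was 3.02 (limma adjusted p 0.0116).

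Efnb2, the B-type ephrin that also marks arteries, climbed along nearly the whole series instead. It was lowest in fraction 2 (0.16), had a median of 2.02 and was highest in fraction 9 (2.70). The linear term rose by 2.58 ± 0.31 (SE) from one end to the other, with a fitted range of 2.55 and an adjusted p of 0.000567 in limma. This call held in all 15 alternatives and without any 1 of the 22 arrays, the only one of the 27 for which both were so. The other Efnb2 probe followed at r = 0.60 and did not pass (limma adjusted p 0.0568). Endothelial markers were summed highest in fractions 10 (5.94, the highest fraction for 1 of 7 markers) and 3 (5.93), where Efnb2 was low, and lowest in fraction 2 (5.12). The cortical (5.39, 3 of 6) and neuron (9.54, 2 of 4) sums were highest in fraction 9, as was Efnb2. The part of any of these in the Efnb2 profile was not tested.

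Efnb3, the ephrin that holds corticospinal axons on their side of the midline, ranged from 2.50 in fraction 2 over a median of 4.57 to 5.34 in fraction 5. Its fitted range was 2.13 (limma adjusted p 0.0245), and the call was lost without fraction 2 or fraction 6. Efnb1 did not pass (fitted range 0.69, adjusted p 0.203).

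Class 3 semaphorins split. Sema3c (fitted range 2.12), Sema3f (1.63) and Sema3a (1.32) passed with rising linear terms, and Sema3b, Sema3d, Sema3e and Sema3g did not (0.53 to 0.94). Sema3a, a repellent of cortical and sensory axons, was lowest in fraction 2 (-0.75), had a median of 0.13 and was highest in fraction 9 (0.91), with an adjusted p of 0.0135 in limma. Its other probe was highest in fraction 10 and did not pass (adjusted p 0.0697). Sema3c was highest in fraction 10 (1.66) and Sema3f in fraction 4 (2.90).

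Of the remaining ligands, Slit3 was highest in fraction 5 (-0.55), with a call lost without fraction 2, 4, 5 or 6, and Ntng2 in the same fraction (-3.17). Ntng2, a membrane-anchored netrin-G, was not well above background in fractions 1 to 3, and its highest level was at least 3.98-fold above the floor of those arrays. Efna4 ran the other way, from -1.12 in fraction 2 to -2.51 in fraction 10 (linear term -1.08 ± 0.24, SE, limma adjusted p 0.0175), and the call was lost without either of these fractions. The other A-type ephrins Efna1, Efna2, Efna3 and Efna5, the netrin Ntn1, and Ntng1 and Slit2 did not pass.

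Efna5, the A-type ephrin best known from retinal and cortical maps, had its lowest level of 0.52 in fraction 9, a median of 1.13 and its highest level of 2.19 in fraction 6, without passing (limma adjusted p 0.142). Ntn1 lay between -1.07 in fraction 10 and 0.38 in fraction 4, with a median of -0.24 (adjusted p 0.118). Slit2 lay between -1.57 in fraction 3 and -0.24 in fraction 5, with a median of -0.88 (adjusted p 0.197). Without coronal fraction 1, Efna5 and Slit2 passed, as did Efna1, Ephb4 and Nrp1.

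Among the receptors, Epha4 had the largest fitted range of all members. Epha4 binds ephrins of both classes and guides thalamocortical and corticospinal axons. It was lowest in fraction 2 (-1.90), had a median of 0.79 and was highest in fraction 6 (1.72), a 12.3-fold span. On the arrays with the spike-in slope in range, which leave out fraction 2, the lowest coronal level was -1.09. Fractions 5 to 9 all lay at 1.21 or above, and fraction 10 at -0.03. The fitted range was 3.14 (limma adjusted p 0.00826), and the call held without any 1 array.

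Of the other A-class Eph receptors, Epha7 (fitted range 2.31), Epha6 (2.30), Epha3 (1.67), Epha5 (1.18) and Epha8 passed, and Epha1, Epha2 and Epha10 did not. Epha6 was lowest in fraction 3 (-3.38), had a median of -1.66 and was highest in fraction 6 (-0.50, limma adjusted p 0.0192), and its call was lost without fraction 2. Epha7 was lowest in fraction 2 (-2.48), had a median of -0.32 and was highest in fraction 9 (0.65). It dropped to -1.41 in fraction 10, and its adjusted p of 0.0492 in limma lay close to the threshold, with the call kept in 3 of 22 fits that left out 1 array. Epha3 and Epha5 were highest in fraction 10, at 0.05 and 4.09, and Epha8 was lowest there, at 1.27, with a call that was lost without that fraction.

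Epha5, a receptor of A-type ephrins, was lowest in fraction 2 (2.77), with a median of 3.39 (limma adjusted p 0.0368). The call was lost with median centring, quantile normalization and no scaling, and in 8 of 22 fits that left out 1 array. Its other RefSeq probe had a larger fitted range, 2.71 (adjusted p 0.00529), and was highest in fraction 9. The probes correlated at r = 0.49 over the 22 arrays, and the shape of the Epha5 curve depends on the probe read.

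In the B class Ephb6, a receptor without kinase activity, was lowest in fraction 2 (0.99), had a median of 3.22 and was highest in fraction 7 (3.94). Its fitted range was 2.50 (limma adjusted p 0.00892). The other Ephb6 probe, a dim one, correlated with it at r = -0.25 and did not pass (adjusted p 0.487). Ephb1, which directs retinal axons to the same side of the brain, was highest in fraction 4 (3.06) and lowest in fraction 10 (1.09), with a falling linear term of -1.16 ± 0.22 (SE, adjusted p 0.00138 in limma). That call was lost without fraction 10. Ephb2 had the smallest fitted range of all members, 0.11, and Ephb3 and Ephb4 did not pass either.

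Of the 5 netrin receptors, Unc5a, Unc5b and Unc5c passed. Unc5a was lowest in fraction 2 (0.90), had a median of 2.69 and was highest in fraction 5 (3.83), with a fitted range of 2.40 (limma adjusted p 0.0106). Unc5b and Unc5c were both highest in fraction 3, at 2.29 and 2.01, and both lowest in fraction 8, at 0.15 and -0.51. Their linear terms were -1.69 ± 0.35 and -2.02 ± 0.42 (SE, adjusted p 0.0104 and 0.0107 in limma).

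Fraction 3 was also where the summed cerebellar markers were highest (7.96, against 4.01 in fraction 9). Markers of proliferating cells, which are numerous in the cerebellar granule layer after birth, were highest in fraction 3 as well (4 of 4), and so were the choroid plexus (7.98, 4 of 5) and astrocyte (6.94, 2 of 4) sums. The other probe of Unc5c, whose loss disturbs the boundary of the cerebellum, followed the first at r = 0.88 and passed too (limma adjusted p 0.0406). The part of any of these cell types in these profiles was not tested, and in a slab fewer cells of a type and less RNA per cell cannot be told apart. Unc5d was well above background in 2 coronal fractions and did not pass.

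All 3 Robo receptors passed. Robo1 was lowest in fraction 2 (0.38), had a median of 1.67 and was highest in fraction 5 (2.04), with a fitted range of 1.56 (limma adjusted p 0.00251). Robo2 went on rising to fraction 10 (2.83), with a linear term of 2.12 ± 0.34 (SE, adjusted p 0.00284), and its other probe followed it at r = 0.93. Robo3, which in commissural axons silences the response to Slit before the midline is crossed, was not well above background in fractions 1 to 3, so its lowest value of -5.97 is a bound.

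The median of Robo3 was -3.55 and its highest level -2.38, in fraction 6. That highest level was at least 7.4-fold above the floor of fractions 1 to 3, the floor being for each array the higher of its lowest well-detected signal and the probe's own value. The fitted range of 2.95 (limma adjusted p 0.0154) includes those bounds.

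Among neuropilins and plexins 4 of 6 passed, each with a rising linear term. Nrp2, the receptor of Sema3f, was lowest in fraction 2 (1.43), had a median of 2.96 and was highest in fraction 5 (4.24), with a fitted range of 2.12 (limma adjusted p 0.0305), and its other probe, which followed at r = 0.91, did not pass (adjusted p 0.0713). The Nrp2 call was lost without fraction 2, 6 or 7, as was that of Plxna2. Nrp1, the receptor of Sema3a, was lowest in fraction 2 (-2.63), had a median of -1.60 and was highest in fraction 5 (0.08), and did not pass (adjusted p 0.116). Plxna4 was lowest in fraction 2 (0.59), had a median of 2.57 and was highest in fraction 6 (3.62), with a fitted range of 2.43 (adjusted p 0.0131). Plxna3 (1.55) and Plxna2 (1.34) passed as well, each highest in fraction 5, and Plxna1 did not (1.21, adjusted p 0.432).

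**Figure D2:**
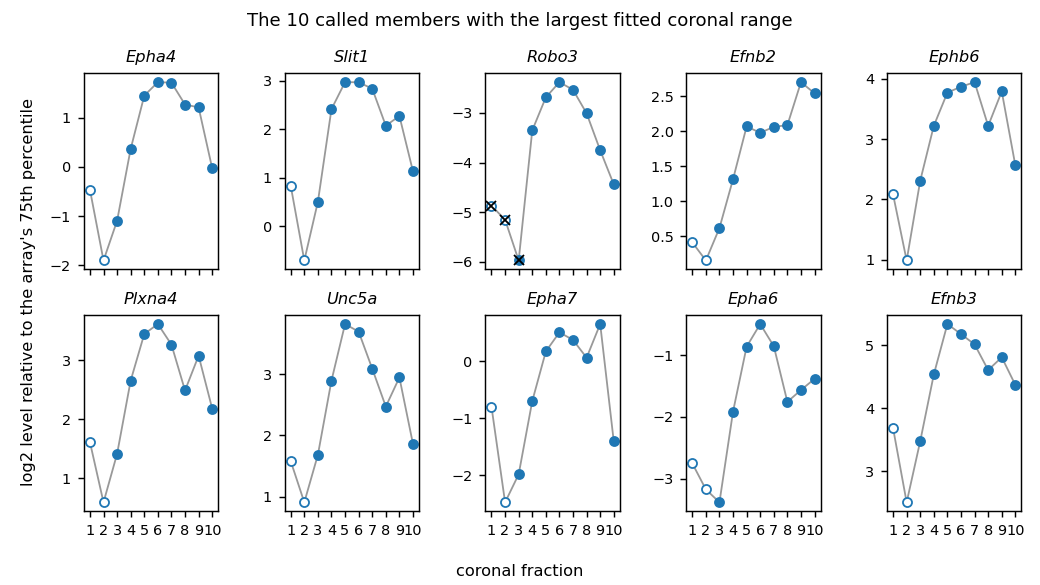
Log2 level against coronal fraction number, from the hindbrain end (1) to the olfactory bulb end (10), for the 10 members past the threshold with the largest fitted coronal range; each panel has its own vertical scale. Open points are arrays with the spike-in slope out of range and crosses are values not well above background. Levels are low in fractions 1 to 3 and climb between fractions 3 and 5, and Efnb2 stays high to fraction 10.

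Along the horizontal series, from the cortical surface to the base of the brain, 6 of 49 members passed (12.2%), where 6.57% of all probes did, or 7.93% of probes well above background on all arrays. They were the ligands Ntn1 and Sema3b and the receptors Nrp2, Unc5b, Unc5c and Ephb1. With each gene read as the mean of its RefSeq probes 13.1% of genes passed, among them these 6 and Ephb6, Robo3 and Sema3a. All 6 had a rising linear term, as did 1563 of the 2604 probes that passed (3.94% of all probes tested passed and rose). The median of the members relative to the series mean was lowest in fractions 2 (-0.23) and 3 (-0.28) and highest in fraction 5 (0.30).

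Ntn1 was low in horizontal fractions 1 (-2.05) and 2 (-2.22). It then rose through -0.82 and -0.25 to 0.00 in fraction 5 and stood at -0.36 in fraction 6. The median was -0.59, the highest level 4.67-fold above the lowest, and the linear term 2.24 ± 0.44 (SE, adjusted p 0.0234 in limma). Oligodendrocyte markers were summed lowest in fractions 1 (3.23) and 2 (3.52) and highest in fraction 5 (7.77, 4 of 5) too. The sums of hindbrain Hox (2.99, 8 of 9), oligodendrocyte precursor (4.93, 3 of 3) and olfactory bulb markers (3.32, 1 of 5) were also highest in fraction 5. In the coronal series the oligodendrocyte sum was highest in fraction 1 (8.43) and Ntn1 in fraction 4. The part of any of these in the Ntn1 profile was not tested. The other Ntn1 probe had a fitted range of 1.69 and did not pass (adjusted p 0.0558).

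Its receptors Unc5b and Unc5c were lowest in fraction 1 (-0.53 and -1.12), had medians of 0.80 and 0.23, and peaked in the middle of the series, in fraction 4 (1.46 and 1.35). By fraction 6 they were back at 0.42 and -0.22. Fitted ranges were 2.07 and 2.35 (limma adjusted p 0.0291 and 0.0340), and the other Unc5c probe did not pass (adjusted p 0.0847). Cerebellar markers were summed highest in the same fraction 4 (6.72, 4 of 7 markers, against 3.40 in fraction 1). So were the sums of choroid plexus (7.66, 5 of 5), striatal (4 of 6), thalamic (2 of 5), raphe (1 of 3) and dopaminergic markers (1 of 3, level with fraction 5), and the part of tissue content was not tested.

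Nrp2 was lowest in fraction 2 (1.10), had a median of 2.33 and was highest in fractions 5 (3.84) and 6 (3.87), with a fitted range of 2.60 (limma adjusted p 0.0426), while its other probe did not pass (adjusted p 0.0512). Nrp1, which did not pass, was lowest in fraction 1 (-3.46), had a median of -2.07 and was highest in fraction 5 (-1.36). Ephb1 rose from 1.37 in fraction 1 over a median of 2.09 to 2.62 in fraction 5 (adjusted p 0.0412).

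Sema3b had its highest level in fraction 6 (1.42), its lowest in fraction 2 (-0.56) and a median of 0.17, with a fitted range of 1.75 (limma adjusted p 0.0299). All 7 markers of meningeal fibroblasts and 4 of 7 endothelial markers were highest in that fraction too, as were 3 of 4 astrocyte and 4 of 6 hypothalamic markers. The summed meningeal level was 7.45 there and 4.99 in fraction 3. In the coronal series Sema3b was highest in fraction 4 (1.04), where the meningeal sum was again highest (6.85) and so were 3 of 3 raphe markers. The part of these tissues in the Sema3b level was not tested.

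Robo3 ran the opposite way. It fell from -2.11 in fraction 1 through -2.54, -3.30, -4.10 and -4.53 to -4.77 in fraction 6, the last not well above background, and did not pass (limma adjusted p 0.0613). Robo1 lay between 0.73 in fraction 2 and 1.92 in fraction 6, with a median of 1.31 (adjusted p 0.0746), and Sema3a between -0.65 in fraction 3 and 0.91 in fraction 6, with a median of -0.01 (adjusted p 0.0516).

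Slit1 (1.14 to 2.29), Slit2 (-1.29 to 0.04, median -0.82), Efna5 (0.64 to 1.44, median 1.18) and Epha5 (2.39 to 3.44, median 3.14) did not pass along this series. The horizontal calls were the less stable ones. All 6 were lowest in fraction 1 or 2, and fractions 1 to 3 are the horizontal arrays with the spike-in slope out of range. With a107, a dim spike-in probe, as a covariate 0 members passed in limma (13 at an unadjusted p under 0.05), where 0.20% of all probes passed and 15.2% were at an unadjusted p under 0.05. Without fraction 1 or without fraction 5 it was 0 as well, where 9 and 401 of the 39621 probes passed.

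**Figure D3:**
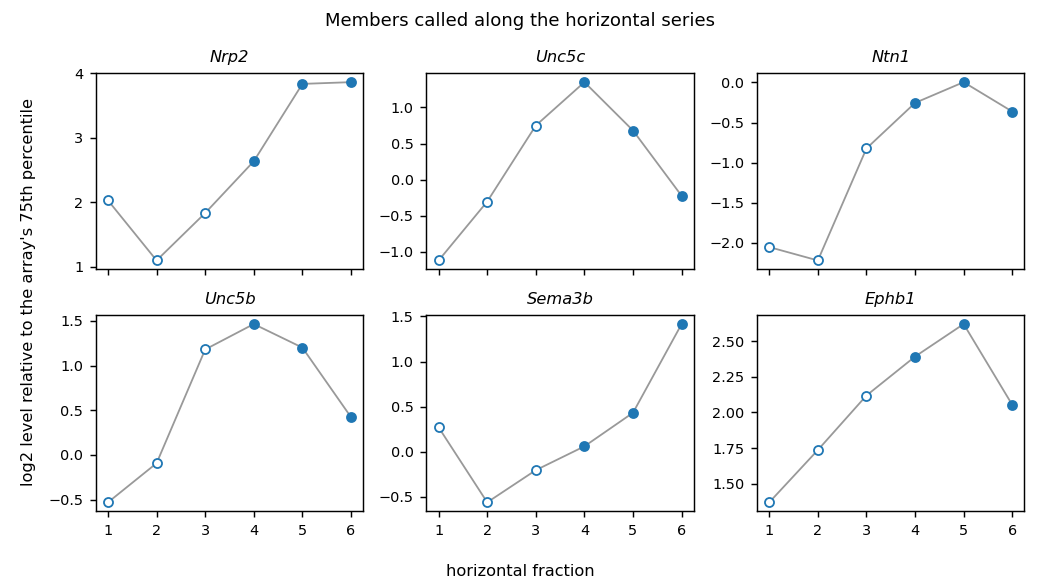
Log2 level against horizontal fraction number, from the cortical surface (1) to the base of the brain (6), for the 6 members past the threshold; each panel has its own vertical scale and open points are arrays with the spike-in slope out of range. Unc5b and Unc5c peak in fraction 4, Ntn1 and Ephb1 in fraction 5, and Nrp2 and Sema3b in fraction 6.

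Along the sagittal series, from one side of the brain to the other, 1 of 49 members passed in the linear term, where 10.2% of all probes did. Over all probes 7.77% passed with a rising and 2.44% with a falling term. This was Sema3g, a semaphorin of blood vessels. Its levels in fractions 1 to 6 were -3.95, -4.40, -4.69, -4.35, -4.14 and -6.34, and those of fractions 3, 4 and 6 were not well above background. The fitted fall of 1.85 ± 0.51 (linear term -1.85, SE, adjusted p 0.0314 in limma) rested on fraction 6, without which it was lost, as was that of every other probe (0 of 39621 in limma, 5.55% at an unadjusted p under 0.05), and with normexp background correction the sign turned (0.43).

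The quadratic sagittal term, which sets the middle of the brain against both sides, was past the threshold for 0 members in limma (7 at an unadjusted p under 0.05), where 0.0303% of all probes passed and 14.8% were at an unadjusted p under 0.05, so the 7 of 49 are near the background. The members nearest to it were Ntng2 (2.06 ± 0.37, SE, adjusted p 0.0543), Ephb1 (-0.97 ± 0.21, adjusted p 0.0668), Unc5b (-1.43 ± 0.33, adjusted p 0.0747) and Ntn1 (-1.56 ± 0.36, adjusted p 0.0747). Under 6 of the alternatives 2 to 4 of these 4 members passed, where 0.45% to 2.53% of all probes or genes tested did.

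Ntn1 stood at -1.27, 0.00, 0.35, 0.09, -0.21 and -1.40 in sagittal fractions 1 to 6, low on both sides. Unc5b had the same form, with 0.55, 1.69, 1.60, 1.70, 1.42 and 0.03. The summed oligodendrocyte markers were also lower in the outer fractions 1 (3.74) and 6 (4.46) than in between (6.53 to 6.84). So were the sums of hindbrain Hox markers (-0.94 and -0.59, against 1.02 to 2.01) and olfactory bulb markers (1.02 and 1.09, against 1.34 to 3.44). Cerebellar, thalamic, proliferating cell and oligodendrocyte precursor sums had this form as well, and the part of any of these was not tested. Ntng2 had the reverse, with -3.21 and -2.69 in the outer fractions and -5.40 and -4.95 in fractions 3 and 4, where it was not well above background.

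For the other genes followed along this axis the levels were as follows. Slit1 lay between 1.47 and 1.90 (median 1.60), Robo1 between 1.52 and 1.80 (median 1.66) and Robo3 between -4.00 and -3.37 (median -3.63). These were narrow spans. Epha5 lay between 2.69 and 3.64 (median 3.57), Efna5 between 0.56 and 1.51 (median 1.18) and Nrp2 between 1.94 and 3.01 (median 2.74), and Nrp1 between -3.11 and -1.29 (median -1.79).

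In sagittal fraction 6, which pools 3 slabs, 13 members were highest of the series and 18 lowest. The share of all probes that were highest or lowest there was not counted, so these counts are not read as a trait of the members. The highest included Sema3a (1.31), Slit2 (0.30), Efna1 (0.90), Efna3 (1.61), Ephb4 (0.21) and Plxna1 (2.05). The lowest included the vessel genes Sema3g and Efnb2 (1.09), and Nrp1 (-3.11), Efnb3 (3.10) and Plxna4 (1.35). In that fraction 5 of 7 endothelial and 6 of 7 meningeal markers were highest, with a summed endothelial level of 6.93 against 5.18 in fraction 3. The choroid plexus sum was highest there too (7.38, 4 of 5). Ephb4, the receptor of veins, and Efna1 had each other as nearest profile among the members (r = 0.80). The part of vessels, meninges and choroid plexus in these levels was not tested.

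The remaining members passed no test, and their levels over the 22 fractions are given as ranges. Among ligands these were -0.46 to 0.90 for Efna1, -1.21 to 1.61 for Efna3, 1.21 to 2.75 for Efnb1, -3.09 to -1.38 for Sema3d and -0.77 to 2.51 for Ntng1. Sema3e had a median of -2.02 over the 22 fractions and was lowest in coronal fraction 3 (-2.87) and highest in coronal fraction 6. Ntng1, the other netrin-G, had its highest level in coronal fraction 6, where the hypothalamic markers were summed highest too (5.24, 5 of 6), as were the thalamic ones (3.98, 2 of 5). Among receptors the ranges were -2.53 to -1.54 for Epha2, -1.23 to -0.57 for Ephb2, 3.81 to 5.10 for Ephb3, -1.21 to 0.21 for Ephb4 and -0.90 to 2.05 for Plxna1. Epha1 (-5.97 to -1.82), Epha10 (-5.98 to -2.19) and Unc5d (-6.63 to -4.05) were not well above background in several fractions, and their lower ends are bounds.

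Dcc, the attractive netrin receptor, needs its probes named. The probe with the highest median (A_55_P1961761) lay between 3.60 and 8.45 in the coronal series (median 4.84), between 4.87 and 8.73 in the horizontal series (median 6.82) and between 4.50 and 7.55 in the sagittal series (median 4.82), and passed no test. All of the 7 arrays with the spike-in slope out of range (6.97 to 8.73) lay above all of the 15 in range (3.60 to 6.86). Its values correlated with spike-in probe a107 at r = 0.91 over the 22 arrays with series means removed, and that of a107 itself was 6.40 to 8.02 on the 7 arrays and 3.20 to 4.95 on the 15.

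Efna2 was the other member with that separation (1.44 to 4.19 against -0.64 to 1.29), shown by 3.72% of all probes tested. Dcc and Efna2 had each other as nearest profile (r = 0.96, and 0.79 with a107 regressed out). With a107 as a covariate neither gene passed any test. The part of the array difference in the levels of both genes was not tested beyond this.

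The second Dcc probe (A_55_P2021744), well above background on all arrays, correlated with the first at r = -0.65. In horizontal fractions 1 to 6 it gave -3.93, -3.80, -2.76, -2.24, -2.49 and -2.76, a fitted range of 1.68 that passed (limma adjusted p 0.0236). This is the form of Ntn1 and Unc5b, low at the cortical surface. Its correlation with a107 was r = -0.77, and the third Dcc probe (A_65_P07978) was well above background on 10 arrays and did not pass.

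**Figure D4:**
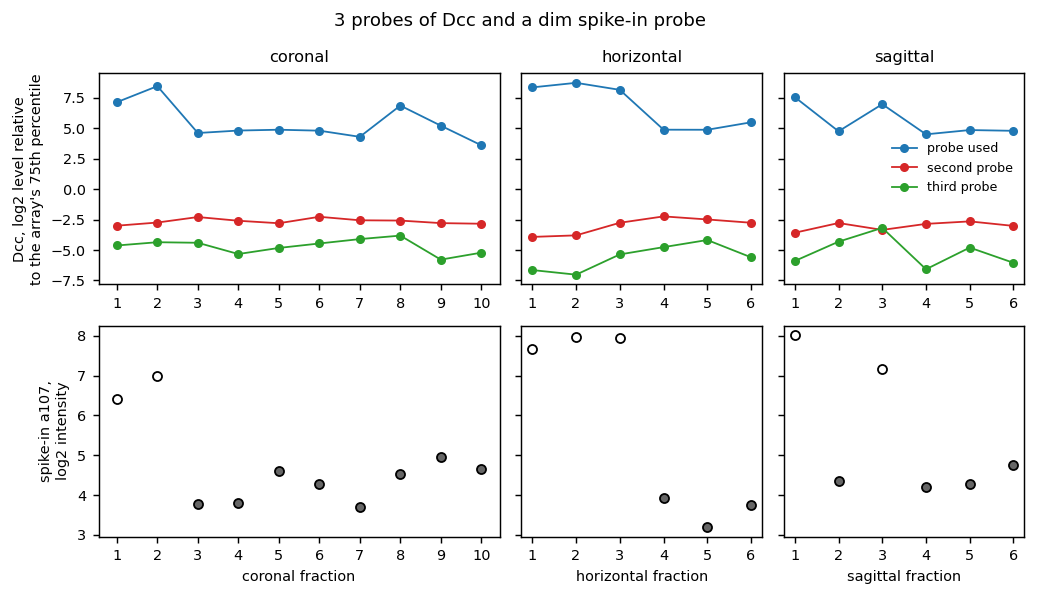
Upper panels: log2 level of the 3 Dcc probes by fraction in the 3 series. Lower panels: log2 intensity of spike-in probe a107, open where the spike-in slope was out of range. The probe used is high exactly on the arrays with open points, and otherwise only in coronal fraction 8, while the second probe is lowest in horizontal fractions 1 and 2.

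Genes that act together in guidance had a higher median likeness of profile than member pairs at large, a difference that was not tested. Likeness was Pearson's r over the 22 fractions after the mean of each series was taken away, given as a description, since the fractions share mice and arrays. The 43 partner pairs named from textbook biology were 39 pairs of a ligand and its receptor and 4 of a neuropilin and a plexin. Their median r was 0.44, that of the 39 alone 0.43, over all 588 pairs of 1 ligand and 1 receptor 0.20, and over all 1176 pairs of members 0.17. After median centring of the arrays the median of the 43, the 588 and the 1176 was 0.58, 0.42 and 0.41, and with quantile normalization 0.39, 0.29 and 0.26.

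Slit1 and Robo1 were the partner pair most alike (r = 0.87), and the only one of the 43 above 0.85. Slit1 with Robo2 had r = 0.77, Slit3 with Robo1 0.71 and Slit2 with Robo1 0.60. In the coronal series alone Slit1 and Robo1 reached r = 0.91, and in the 6 sagittal fractions, where both were nearly level, it was -0.71.

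Among semaphorin receptors and ligands, Nrp1 with Plxna4 had r = 0.78, Nrp2 with Plxna3 0.78, Nrp1 with Plxna2 0.73 and Nrp2 with its ligand Sema3f 0.73. Sema3a and its receptor Nrp1, in contrast, had r = 0.06, being highest in coronal fractions 9 and 5 respectively. The value was 0.32 with centred arrays, 0.21 with quantile normalization and -0.10 with a107 regressed out.

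Ntn1 was alike to Unc5b (r = 0.74) and Unc5c (0.66), and less so to Unc5a (0.06, or 0.31 with centred arrays). In the horizontal series alone Ntn1 and Unc5a had r = 0.75, and in the coronal series -0.27. With the Dcc probe used it had r = -0.31, which was -0.44 with centred arrays, -0.32 with quantile normalization and 0.37 with a107 regressed out. Among ephrins, Efnb3 with Epha4 had r = 0.73 and Efnb2 with Epha4 0.72, although both ran the opposite way in the 6 horizontal fractions (-0.62 and -0.38). In contrast, Efna5 with Epha5 had -0.11 and Efnb1 with Ephb2 -0.55, the lowest of the 43, and with each array centred on its median both turned positive (0.26 and 0.34), while they stayed negative with quantile normalization (-0.18 and -0.28) and with a107 regressed out (-0.25 and -0.50).

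**Figure D5:**
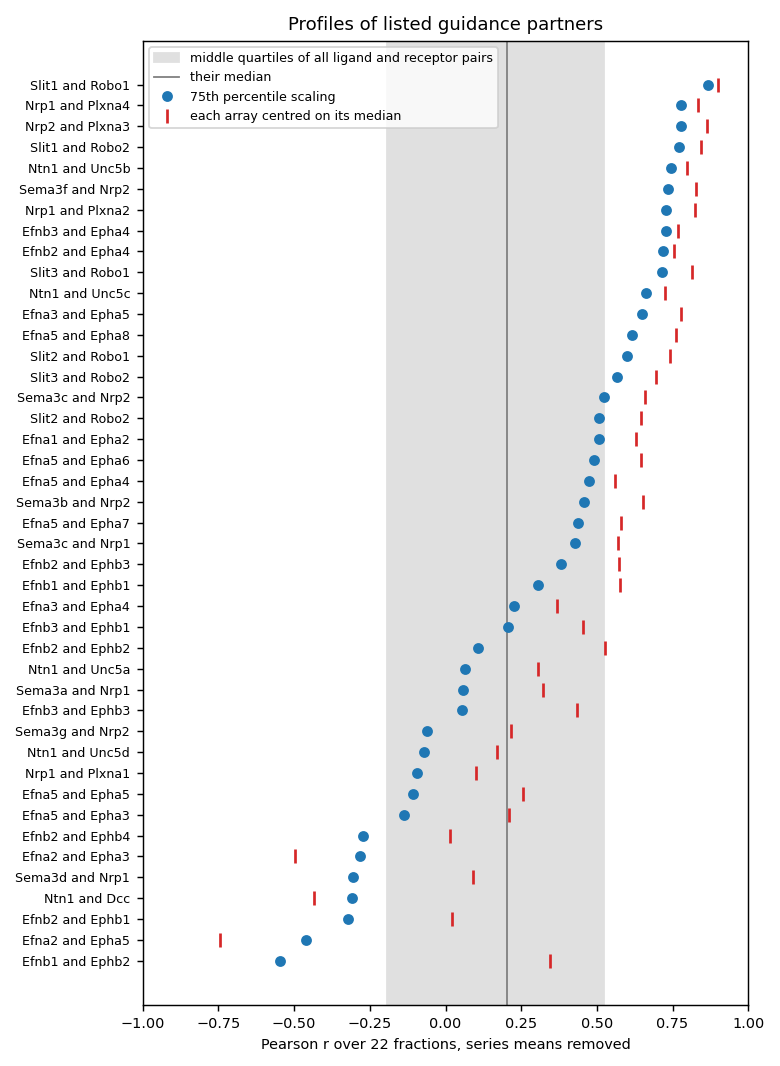
Pearson r between the profiles of 43 listed partners (blue points, 75th percentile scaling; red marks, each array centred on its median), with the middle quartiles (grey) and the median (line) of all 588 pairs of 1 ligand and 1 receptor. Slit1 and Robo1 are highest at 0.87 and Efnb1 and Ephb2 lowest at -0.55, which is 0.34 with centred arrays.

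The highest correlations of all joined members that are not partners. Beside Dcc and Efna2, Epha5 and Ephb3, both Eph receptors, had r = 0.96, Slit1 and Unc5a 0.95, Plxna3 and Plxna4 0.94, Efnb2 and Robo2 0.93, Efnb3 and Plxna4 0.93, and Unc5b and Unc5c 0.92. With a107 regressed out Dcc and Efna2 had 0.79 and Epha5 and Ephb3 0.98. The Epha5 and Ephb3 value holds for the Epha5 probe used, to which the other probe correlated at r = 0.49. Both genes were lowest in horizontal fraction 3 and sagittal fraction 3, arrays with the spike-in slope out of range. Slit1 was also the nearest member to Sema3f, Epha6, Epha7 and Ephb6. Plxna2 and Efna1 were the most unlike (r = -0.81), though with each array centred on its median this was -0.46.

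Of the promoters in the RefSeq table (GRCm38.p6, 250 bases before and 50 after the start), 40 of the 49 members had at least 1. Epha5 with Ephb3 and Unc5b with Unc5c are receptor pairs whose members were each other's nearest profile at r over 0.9 and have a single promoter each, and their sequences are shown 5′ to 3′ on the strand of the gene to set receptors with like profiles beside each other at their starts. For Epha5 the likeness holds for the probe used, to which its other probe correlated at r = 0.49. Capitals mark the homeodomain core TAATTA and the GC box GGGCGG on either strand (no match of one overlaps the other).
Epha5 (chr5:84417333-84417632, minus strand): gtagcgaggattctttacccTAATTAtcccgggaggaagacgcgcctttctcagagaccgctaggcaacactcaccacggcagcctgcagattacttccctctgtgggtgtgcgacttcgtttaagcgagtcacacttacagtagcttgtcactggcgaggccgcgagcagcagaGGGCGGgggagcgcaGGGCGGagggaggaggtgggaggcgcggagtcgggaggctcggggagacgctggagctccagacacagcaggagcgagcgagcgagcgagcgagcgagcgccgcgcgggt
Ephb3 (chr16:21204545-21204844, plus strand): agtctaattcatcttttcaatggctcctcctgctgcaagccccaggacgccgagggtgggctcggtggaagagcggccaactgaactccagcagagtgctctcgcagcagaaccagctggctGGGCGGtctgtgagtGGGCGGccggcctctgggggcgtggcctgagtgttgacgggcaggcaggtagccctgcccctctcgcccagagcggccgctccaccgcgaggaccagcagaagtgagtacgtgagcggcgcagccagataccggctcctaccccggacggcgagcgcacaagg
Unc5b (chr10:60831532-60831831, minus strand): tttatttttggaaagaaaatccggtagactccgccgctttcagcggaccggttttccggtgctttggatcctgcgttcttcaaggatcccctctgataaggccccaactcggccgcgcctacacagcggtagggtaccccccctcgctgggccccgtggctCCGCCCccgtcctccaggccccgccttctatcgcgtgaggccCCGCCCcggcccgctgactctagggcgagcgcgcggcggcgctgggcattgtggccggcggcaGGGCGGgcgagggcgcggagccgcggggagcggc
Unc5c (chr3:141465314-141465613, plus strand): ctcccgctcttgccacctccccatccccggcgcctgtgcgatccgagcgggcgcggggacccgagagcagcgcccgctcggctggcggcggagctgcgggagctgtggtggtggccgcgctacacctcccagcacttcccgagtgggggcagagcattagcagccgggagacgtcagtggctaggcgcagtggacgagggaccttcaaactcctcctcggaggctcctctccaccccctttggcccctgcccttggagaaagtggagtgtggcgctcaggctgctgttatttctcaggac

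Epha5 held 1 homeodomain core and 2 GC boxes, Ephb3 held 2 GC boxes, Unc5b held 3 GC boxes and Unc5c held neither motif. Among the 32851 RefSeq promoters, 5.29% held the homeodomain core and 35.7% the GC box. Over the 45 promoters of the members these were 6.67% and 71.1%. The number of CpG dinucleotides was 30 for Epha5, 23 for Ephb3, 36 for Unc5b and 24 for Unc5c, where the median was 20 for the promoters of members and 7 for all. A match is a description of the letters and not a site of binding.

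Other genes of axon guidance were read from a fixed list. Of 67 other guidance genes (other semaphorins and plexins, netrin and Robo relatives, draxin and repulsive guidance molecules, netrin-G ligands, Flrt and latrophilin partners of Unc5, L1 adhesion molecules, collapsin response mediators and cytoplasmic effectors) 65 were tested and 36 passed in the coronal series (55.4%, where 19.8% of all probes did), 31 rising and 5 falling. All 5 collapsin response mediators, which carry semaphorin signals inside the growth cone, were among them. Of genes read as the mean of their RefSeq probes, 30.2% passed.

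Draxin, a secreted netrin antagonist, had the largest fitted coronal range (3.47, falling, limma adjusted p 0.00522), although it was well above background in 6 of 10 coronal fractions. Ngef, an exchange factor that acts below EphA receptors, came next (3.21, rising, adjusted p 0.0029). Along the horizontal series 9 of 65 passed (13.8%, where 6.57% of all probes did), all rising, with Plxnb3 (3.74, adjusted p 0.00852) and Sema5a (2.75, adjusted p 0.0236) first. Of genes read as the mean of their RefSeq probes, 13.1% passed this test.

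In the sagittal linear term 4 of 65 passed (6.15%, where 10.2% of all probes did), all falling, as 2.44% of all probes passed and fell, with Adgrl1 (-2.10 ± 0.51, SE, limma adjusted p 0.0163) and Srgap3 (-1.61 ± 0.48, adjusted p 0.0461) first. The quadratic term called 1, Plxnd1, the receptor of Sema3e, which was higher on both sides than in the middle (1.67 ± 0.25, adjusted p 0.0447).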

How the data were processed

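The 22 one-colour Agilent arrays (Cy3, 1 per fraction) were read from the scanner files. Per the file headers, the deposited intensities came from Feature Extraction 10.10.1.1, as background-subtracted processed signals that were not yet scaled between arrays. A further deposited table holds log2 values that the authors normalized per chip: 99.899% of its matched values (47478 of 47544 rows) lay within 0.02 of log2 intensity relative to the array's own 75th percentile, so its scale and centring are known, with column medians of -2.899 to -1.862 over its rows. The same scaling was used here, after removing control spots and spots marked as outliers.

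A single limma model (limma 3.58.1, R 4.3.3) gave each series its own mean level plus linear and quadratic slopes on position (9 coefficients), with 13 residual degrees of freedom. Of 55600 probes, 39621 that were well above background in at least one fraction of each series were tested, with Benjamini-Hochberg adjustment over all of them and a threshold of 0.05. Neighbouring fractions of a brain act as the measure of scatter, so p-values cover 1 mouse per series and not the spread between animals. The rise is the fitted change of the linear term over a series, and the fitted range is the highest minus the lowest fitted value. Spike-in slope and the dim spike-in probe a107 came from the file headers and control spots, and the 4 slides from a number in the scanner file names. The methods name no test, so this one is an addition.

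Members, gene lists, partner pairs and tests were chosen with earlier results of these data known. All 49 members are named. Fraction values are given for the members past the threshold with the largest fitted range (up to 10 coronal, and 5 in each other test) and for Ntn1, Dcc, Slit1, Slit2, Robo1, Robo3, Sema3a, Nrp1, Nrp2, Efna5 and Epha5, and the other guidance genes are given by counts and the leading 2 per test. Probe names are printed only for Dcc. Alternatives changed the scaling, background correction (normexp, offset 50, on the median spot signal in place of the planned mean, for which no column was read), filter, variance model, probe choice, covariates and arrays. For the partner pairs, quantile normalization and the subset of ligand and receptor pairs were added after seeing the data. The fit was also run on simulated data with independent noise for each probe and array. These hold no difference shared by the probes of an array, so they do not bear on array differences. Promoters came from RefSeq (GRCm38.p6), matched by symbol.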

Additional observations from a re-analysis of the deposited data

Results flagged for a closer look

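In 10 of the 147 groups looked at (each of the 49 members in each series), the highest or lowest fraction stood apart from its neighbour in level by more than the critical share of the whole range in Dixon's test. Chance flags about 1 in 20 such groups, and neighbouring fractions are not replicates, so a gap can also be a steep change along the axis.

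In the coronal series Efna2 was high in fraction 2, at 4.19 with the next at 1.44, and Efna3 was low there, at -1.21 with the next at -0.05. That array was one of the 7 with the spike-in slope out of range. Sema3b was high in fraction 4 (1.04, next 0.38), Ephb1 low in fraction 10 (1.09, next 2.05) and Sema3g low in fraction 6 (-5.61, next -4.98), where it was not well above background.

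In the sagittal series fraction 6 gave 4 of the gaps. Efna4 (-2.72, next -2.07), Plxna4 (1.35, next 2.25) and Sema3g (-6.34, next -4.69) were low there, and Ephb4 (0.21, next -0.74) was high. Ephb3 was low in fraction 3 (3.81, next 4.31), another array with the slope out of range.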

How the results depend on the processing

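Of the 27 coronal calls, 17 held without any 1 array, and only that of Efnb2 also held in all 15 alternatives. The count was 24 to 27 under the other scalings, background correction, filters, variance model, probe choice and the deposited table (11.8% to 32.8% of all probes passed), 21 with a107 as a covariate (13.0%), 12 on the arrays in range (10.4%), 8 with a linear term only (7.12%), 5 with slide as a block (4.03%), 2 on the coronal arrays alone (Efnb2 and Ephb1, 1.60%) and 1 on those of slide 1 (Efnb2), where 4018 of 39621 probes passed, a higher share than that of the members. Leaving out 1 array gave 19 (without coronal fraction 2, 5076 of 39621 probes) to 31 (without coronal fraction 1, 10710). The cause of the losses was not tested. The linear term of Epha8 changed sign on slide 1 alone and without coronal fraction 10. Array medians after the main scaling ran from -1.81 (coronal fraction 5) to -1.21 (horizontal fraction 2), and centring on them kept 25 of the 27.

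The 6 horizontal calls became 0 with a107 as a covariate, with a linear term only and on the horizontal arrays alone (limma, 13, 13 and 16 members at an unadjusted p under 0.05, where 15.2%, 37.1% and 26.8% of all probes were). Leaving out 1 array gave 0 (without horizontal fraction 1 or 5, where 0.02% and 1.01% of all probes passed) to 11 (without coronal fraction 1, 9.57%). The arrays in range alone could not be fitted for this series. The single sagittal linear call became 0 with median centring, quantile normalization, a linear term only, the sagittal arrays alone or the trend and robust variance model (0% to 11.1% of all probes passed), 2 with no scaling (6.98%), slide as a block (11.9%) or probes detected on all arrays (18.9%), 3 on the arrays in range (Efna3, Unc5b and Unc5c, 8.67%) and 4 with normexp (16.1%), and 0 (without sagittal fraction 6, 0%) to 4 (without coronal fraction 1, 12.5%) when 1 array was left out. The fitted Sema3g slope turned to 0.43 with normexp. The sagittal quadratic count of 0 became 2 with slide as a block (0.45% of all probes passed), trend and robust (0.60%) or the mean of all RefSeq probes (0.63% of genes). It became 3 with no scaling (0.55%) or probes detected on all arrays (2.07%) and 4 with normexp (2.53%). When 1 array was left out it was 0 to 3 (3 without coronal fraction 1, 0.99%). No paired analysis was possible because the numbers shared by the series are positions along different axes of different mice.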
